A study of Arabidopsis thaliana with 6 samples.

Results

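Plastid sigma factors and the plastid RNA polymerase RPOTp are 7 nuclear genes of Arabidopsis thaliana that set which chloroplast genes are transcribed. By the authors' test at a q below 0.05, 6 of the 7 were called higher when GFP-FHY1 was present, against 9.92% of all tested genes. None of the 7 was called lower, against 12.9% of all tested genes. The members were chosen by gene identifier, as the sigma factor genes SIG1 to SIG6 and RPOTp, out of 33557 genes in the authors' deposited table. The choice was made with earlier results of these data known. All 7 were found in the table and tested by the authors, among 23937 tested genes, and no filter on low values removed any. RNA was sequenced from whole seedlings, labelled as 4 days old, with 3 libraries per genotype. The GFP-FHY1 line carries a GFP-FHY1 fusion behind the 35S promoter, which is active in most cell types, in the fhy1-1 background, and the other genotype is fhy1-1 itself, so both groups carry the fhy1-1 mutation. The light treatment of both is written as a code of 4 days followed by 3 h of far-red. What the code means for the light of the 4 days is not explained. All libraries had the far-red, so a response to it and a difference present before it cannot be told apart. No wild type is among the samples, so a regained FHY1 function and an excess of FHY1 cannot be told apart. The labels do not say how many independent transgenic lines were used.

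FHY1 helps phytochrome A, the photoreceptor for far-red light, to enter the nucleus and act on light-regulated genes. Chloroplast genes are read by a plastid-encoded polymerase of the bacterial type (PEP) and by a nuclear-encoded polymerase of the phage type. PEP has its catalytic core encoded in the chloroplast genome, but it finds a promoter only with a sigma factor, and all sigma factors are encoded in the nucleus. RPOTp is the phage-type enzyme of the plastid and reads, among others, the genes of the PEP core. Light raises PEP activity during greening, and SIG5 is known for passing light and stress signals to the chloroplast promoter of psbD, a reaction centre gene of photosystem II.

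The stretches of DNA before 3 of the genes are shown because they cover the member with the largest fold change (SIG5), a member with an intermediate fold change (SIG4) and the member that was not called (RPOTp), and because no other annotated gene lies within them. Each is the 250 bases before the gene start in the RefSeq annotation, read 5′ to 3′ on the gene's strand from the TAIR10.1 genome: chr5:8160344-8160593 on the minus strand for SIG5, chr5:4430902-4431151 on the minus strand for SIG4, and chr2:10254642-10254891 on the minus strand for RPOTp. Capitals mark matches to the motifs searched.
SIG5: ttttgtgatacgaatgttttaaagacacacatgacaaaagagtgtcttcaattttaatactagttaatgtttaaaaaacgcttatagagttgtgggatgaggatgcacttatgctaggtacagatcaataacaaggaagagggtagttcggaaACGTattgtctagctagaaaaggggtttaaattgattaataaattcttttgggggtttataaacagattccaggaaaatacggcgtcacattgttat
SIG4: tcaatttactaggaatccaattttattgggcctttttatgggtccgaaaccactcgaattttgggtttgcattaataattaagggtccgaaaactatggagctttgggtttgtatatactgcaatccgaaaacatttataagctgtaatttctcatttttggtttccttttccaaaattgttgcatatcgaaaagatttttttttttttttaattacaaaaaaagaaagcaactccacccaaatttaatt
RPOTp: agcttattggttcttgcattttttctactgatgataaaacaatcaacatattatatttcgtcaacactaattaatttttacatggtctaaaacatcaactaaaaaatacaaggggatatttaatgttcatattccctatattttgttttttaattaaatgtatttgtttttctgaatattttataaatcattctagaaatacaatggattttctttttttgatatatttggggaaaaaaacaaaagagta
The motifs were the G-box CACGTG, the ACGT core that bZIP factors such as HY5 bind within longer elements, the FHY3/FAR1 motif CACGCGC and the GATA motif GATAAG, each on both strands, with every G-box also holding the ACGT core. Before SIG5, ACGT stood 97 to 94 bases ahead of the start, and no other motif was present. The windows of SIG4 and RPOTp held none of these letters. Among the other members, SIG3 had 2 ACGT cores and 1 GATA motif, and SIG1, SIG2 and SIG6 had no match. ACGT therefore occurred in 2 of 7 windows, against 44.1% of 27443 windows of protein-coding genes. The GATA motif occurred in 1 of 7 against 12.3%, while the G-box and the FHY3/FAR1 motif occurred in 0 of 7 against 6.49% and 1.06%. The RefSeq start of SIG5 lies 114 bases upstream of the start in the authors' table, and those of the other members 0 to 177 bases upstream. These matches describe letters in short windows.

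FHY1 itself, the check on the labels, was at 195.9 FPKM in the GFP-FHY1 line and 19.0 FPKM in fhy1-1, values that cannot separate the transgene from the mutant transcript. All 6 sigma factor genes rose in the GFP-FHY1 line and RPOTp did not pass the test. In the authors' deposited table, which gives 1 FPKM value per gene and genotype (fragments per kilobase of transcript, scaled to mapped fragments), 6 of 7 members passed as higher at a q below 0.05 and none passed as lower. Among all tested genes, 9.92% passed as higher and 12.9% as lower. The median log2 fold change, GFP-FHY1 line over fhy1-1, was 0.59 over the 7 members and -0.05 over all tested genes. The table combines the 3 libraries of a genotype, so no SD can be given, and the depth behind each value is unknown. Intervals below are 95% intervals of the fold change from the error implied by the authors' fold change and test statistic. How much spread between replicates that error holds is not given in the sources used here. In whole seedlings, a change in the number of cells of a type and a change in RNA per cell cannot be told apart.

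**Figure D1:**
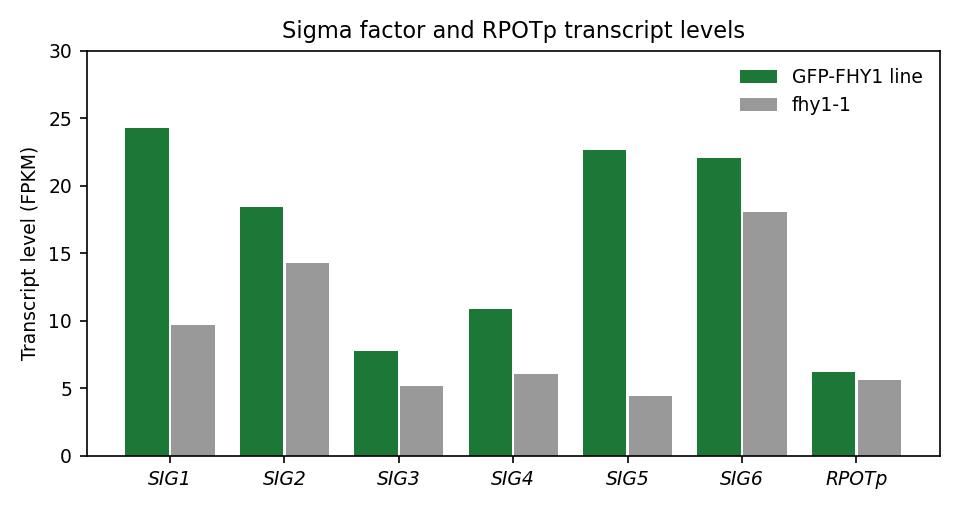
Bars give the transcript level in FPKM of each gene in the GFP-FHY1 line (green) and in fhy1-1 (grey), 1 value per genotype in the authors' deposited table, with no error available. SIG5 was the lowest of the 7 in fhy1-1, at 4.45 FPKM, and the second highest in the GFP-FHY1 line, at 22.7 FPKM.

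SIG5 (AT5G24120, chromosome 5, 8157551 to 8160229, TAIR10) had the largest fold change of the 7. It was at 22.7 FPKM in the GFP-FHY1 line, against 4.45 FPKM in fhy1-1 (authors' deposited table). The fold change was 5.10 (interval 4.42 to 5.88), or 2.35 on the log2 scale, with the authors' deposited q listed as 0, and 99.3% of tested genes with both values above 0 had a smaller log2 fold change. Its level in fhy1-1 was above that of 40.7% of tested genes, and its level in the GFP-FHY1 line above that of 77.3%. SIG5 recognises the blue-light-responsive promoter of psbD and its own transcript is known to respond to light, to stress and to the clock.

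SIG1 (AT1G64860, chromosome 1, 24097913 to 24100952) had the second largest fold change. This sigma factor is known for photosystem promoters such as that of psaA, and its activity is set by phosphorylation. In the authors' deposited table it stood at 24.3 FPKM in the GFP-FHY1 line, the highest of the 7 there, and at 9.66 FPKM in fhy1-1. The fold change was 2.51 (interval 2.25 to 2.81; the authors' deposited q listed as 0), and 97.4% of tested genes had a smaller log2 fold change. SIG1 and SIG5 were the members that at least doubled. At a q below 0.05 and at least a 2-fold change, 2 of 7 members and 2.09% of all tested genes were higher.

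SIG4 and SIG3, the sigma factors tied to narrow sets of chloroplast promoters, rose less. SIG4 (AT5G13730), known for transcription of the NDH subunit gene ndhF, was at 10.9 FPKM in the GFP-FHY1 line and 6.04 FPKM in fhy1-1, 1.80-fold higher (interval 1.53 to 2.13; authors' deposited q = 8.46e-11). The table gives SIG4 the same locus, chromosome 5 from 4427783 to 4430837, as AT5G13720, a gene of the opposite strand. Whether reads were separated by strand is not given in the sources used here, so their assignment is uncertain. AT5G13720 was at 4.21 FPKM in the GFP-FHY1 line and 5.55 FPKM in fhy1-1, a log2 fold change of -0.40 that was not called (authors' deposited q = 0.126). SIG3 (AT3G53920, chromosome 3, 19960869 to 19963949), known for transcription of psbN, was at 7.77 FPKM in the GFP-FHY1 line and 5.15 FPKM in fhy1-1, 1.51-fold higher (authors' deposited q = 1.22e-06), with an interval of 0.38 to 0.81 on the log2 scale.

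SIG2 and SIG6, the highest sigma factors in fhy1-1, had the smallest fold changes of the sigma factors. SIG2 (AT1G08540, chromosome 1, 2703336 to 2706845) serves plastid tRNA genes, among them that of the glutamyl-tRNA from which chlorophyll synthesis starts. It was at 18.4 FPKM in the GFP-FHY1 line and 14.3 FPKM in fhy1-1, 1.29-fold higher (interval 1.17 to 1.42; authors' deposited q = 2.87e-06). SIG6 (AT2G36990, chromosome 2, 15537258 to 15540139) acts broadly on PEP promoters early in the greening of cotyledons. It was at 22.1 FPKM in the GFP-FHY1 line and 18.0 FPKM in fhy1-1, 1.22-fold higher (interval 1.12 to 1.33; authors' deposited q = 4.15e-05). If the 3 libraries of a genotype varied by a coefficient of variation of 10% beyond the authors' error, SIG2 and SIG6 would not be called (adjusted p = 0.0884 and 0.231), and with 20% SIG3 would not be either (adjusted p = 0.415). SIG1, SIG4 and SIG5 were called under both, with SIG4 at an adjusted p of 0.0480 under 20%. Among all genes, 5.13% were higher with 10% added and 2.48% with 20%, against 4 of 7 and 3 of 7 members.

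RPOTp (AT2G24120, chromosome 2, 10248911 to 10254641) was at 6.21 FPKM in the GFP-FHY1 line and 5.61 FPKM in fhy1-1. Its fold change of 1.11 (interval 0.984 to 1.24) was not called (authors' deposited q = 0.265). By the implied error alone, the interval leaves room for a change of up to 1.24-fold. With added spread between replicates it would be wider. The related phage-type enzymes also stood without a call. RPOTm, the mitochondrial enzyme, was at 2.48 FPKM in the GFP-FHY1 line and 2.79 FPKM in fhy1-1 (authors' deposited q = 0.427), and RPOTmp, which serves mitochondria and plastids, at 1.39 FPKM in the GFP-FHY1 line and 1.19 FPKM in fhy1-1 (authors' deposited q = 0.458). The locus of RPOTm overlaps that of another gene.

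**Figure D2:**
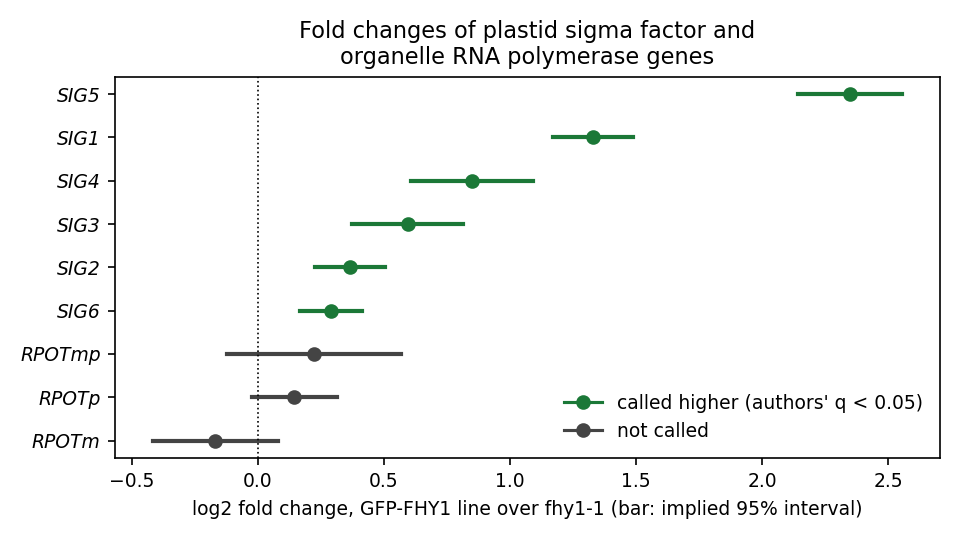
Points give the log2 fold change, GFP-FHY1 line over fhy1-1, of each sigma factor and organelle RNA polymerase gene, and bars the 95% interval from the error implied by the authors' test. The interval of SIG5 lies above all others, that of SIG1 is next, and those of the 3 polymerase genes include 0.

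By the implied error, the fold changes of the sigma factors differed among themselves. Of the 15 pairs of sigma factors, the 95% interval of the difference in log2 fold change lay above 0 in 12 and included 0 in 3. Of the 6 pairs of a sigma factor with RPOTp, it lay above 0 in 5 and included 0 in 1. SIG5 exceeded SIG1 by 1.02 on the log2 scale (interval 0.76 to 1.28), and SIG1 exceeded SIG4 by 0.48 (interval 0.19 to 0.77). Below that, neighbours in the order could not be separated: the differences of SIG4 over SIG3, SIG3 over SIG2, SIG2 over SIG6 and SIG6 over RPOTp were 0.26, 0.23, 0.07 and 0.15, each with an interval that included 0. These intervals are not adjusted for the number of pairs. They rest on the implied error alone, with no added spread between replicates.

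The order of the levels changed with the genotype. FPKM is per length of transcript, so levels of different genes were set in order. They also depend on the annotated transcript length and on read assignment, which is uncertain for SIG4. In the GFP-FHY1 line the order was SIG1, SIG5, SIG6, SIG2, SIG4, SIG3 and RPOTp, at levels of 24.3 to 6.21 FPKM. In fhy1-1 it was SIG6, SIG2, SIG1, SIG4, RPOTp, SIG3 and SIG5, at levels of 18.0 to 4.45 FPKM. SIG5 thus stood at rank 2 in the GFP-FHY1 line and at rank 7 in fhy1-1. Without values per library, it cannot be said which neighbours in either order differ beyond their spread. The highest sigma factor level was 3.13 times the lowest in the GFP-FHY1 line and 4.06 times in fhy1-1.

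The summed level of the 6 sigma factors was 106.1 FPKM in the GFP-FHY1 line and 57.6 FPKM in fhy1-1, a ratio of 1.84. SIG1 and SIG5 made up 67.8% of the difference between the sums. Without SIG1 and SIG5 the sums were 59.2 FPKM in the GFP-FHY1 line and 43.5 FPKM in fhy1-1, a ratio of 1.36. SIG5 held 21.4% of the sum in the GFP-FHY1 line and 7.72% in fhy1-1, and SIG1 held 22.9% in the GFP-FHY1 line and 16.8% in fhy1-1. SIG2 and SIG6 together held 38.2% in the GFP-FHY1 line and 56.1% in fhy1-1, although both were called higher in FPKM, and SIG3 and SIG4 together held 17.6% in the GFP-FHY1 line and 19.4% in fhy1-1. Relative to RPOTp, the sigma factor sum was 17.1 times its level in the GFP-FHY1 line and 10.3 times in fhy1-1.

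**Figure D3:**
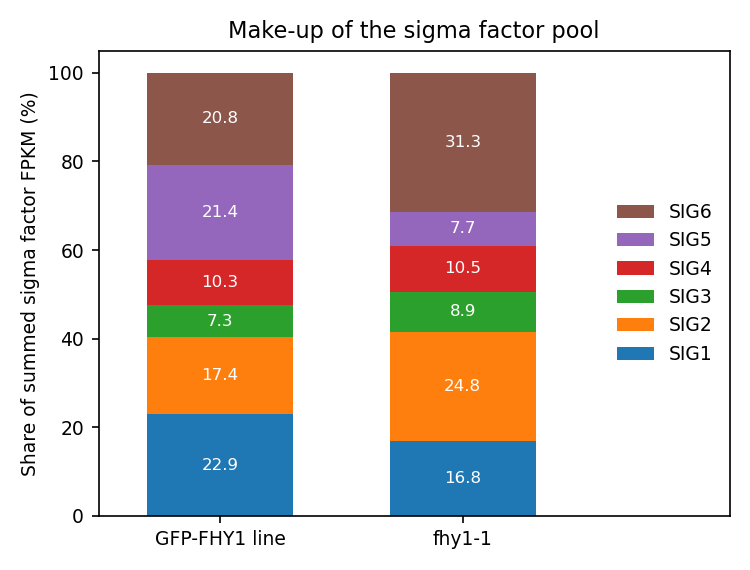
Stacked bars give the share in percent of each sigma factor in the summed FPKM of the 6, in the GFP-FHY1 line (left) and in fhy1-1 (right), from 1 value per gene and genotype. SIG5 took 21.4% in the GFP-FHY1 line and 7.72% in fhy1-1, and the shares of SIG2 and SIG6 were smaller in the GFP-FHY1 line.

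The exon sequences of the members had no exact 50-base copy elsewhere in the genome. None of the 50-base words within their exons in the RefSeq annotation (1258 for SIG4 to 2928 for RPOTp) occurred at any other position. This search cannot separate genes on opposite strands of the same place, as the authors' table lists SIG4 and AT5G13720. Words across exon junctions and copies with mismatches were not searched. RefSeq lists 7 exons in 1 transcript of SIG2, 9 in that of SIG6 and 4 in that of SIG4. SIG5 has 3 transcripts of 6 to 7 exons, SIG1 has 2 of 10, SIG3 has 2 of 8 to 9 and RPOTp has 2 of 17 to 19. The longest coding regions run from 1260 bases in SIG4 to 1719 bases in SIG2, and that of RPOTp has 2982 bases. The table gives 1 value per gene, so transcripts of 1 gene were not separated.

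Proteins that surround PEP in the chloroplast were called in both directions. Of 12 PEP-associated proteins, which bind the core enzyme and are needed for its activity, the authors' deposited table had 2 called higher and 3 called lower (median log2 fold change 0.02), where 9.92% of all tested genes were higher and 12.9% lower. PAP2/pTAC2, a pentatricopeptide repeat protein, rose 1.26-fold, to 10.6 FPKM in the GFP-FHY1 line against 8.43 FPKM in fhy1-1, and PAP1/pTAC3 rose 1.12-fold. The iron superoxide dismutase genes PAP9/FSD2 and PAP4/FSD3 fell by 0.56 and 0.49 on the log2 scale, and PAP7/pTAC14 by 0.23. PAP4/FSD3 stood at 20.2 FPKM in the GFP-FHY1 line and 28.3 FPKM in fhy1-1. The other 7 were not called, among them PAP5/HMR, a phytochrome signalling factor found in the nucleus and in plastids, at 16.9 FPKM in the GFP-FHY1 line and 17.2 FPKM in fhy1-1. The split of higher and lower calls in this list depended on scaling: centring the fold changes on the median gene (a shift of -0.05) gave 4 higher and 2 lower.

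Of 10 regulators of sigma factors and PEP, the authors' deposited table had 1 called higher and none lower, with a median log2 fold change of 0.0034. The higher share is near the 9.92% of all tested genes, and 12.9% of those were lower. The called gene was GUN1, a signal relay from the plastid to the nucleus, at 61.8 FPKM in the GFP-FHY1 line and 56.4 FPKM in fhy1-1 (1.10-fold). SIB2, a sigma factor binding protein, was at 18.3 FPKM in the GFP-FHY1 line and 17.8 FPKM in fhy1-1 (authors' deposited q = 0.898). CSK, the chloroplast sensor kinase linked to SIG1, was at 6.98 FPKM in the GFP-FHY1 line and 5.74 FPKM in fhy1-1 (authors' deposited q = 0.185). DG1, a partner of SIG6, was at 5.32 FPKM in the GFP-FHY1 line and 5.04 FPKM in fhy1-1 (authors' deposited q = 0.735). CKA4, the plastid casein kinase, was at 65.3 FPKM in the GFP-FHY1 line and 66.6 FPKM in fhy1-1 (authors' deposited q = 0.732). SIB1 was near 0, at 0.194 FPKM in the GFP-FHY1 line and 0.148 FPKM in fhy1-1. Loci of SIB2, DG1, PRIN2 and FLN2 overlap other genes.

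Among 11 further proteins of the plastid chromosome preparation, the authors' deposited table had 3 called higher and 2 called lower (median log2 fold change 0.10), against 9.92% and 12.9% of all tested genes. PTAC16 was the largest, at 50.1 FPKM in the GFP-FHY1 line and 16.6 FPKM in fhy1-1 (3.02-fold), and PTAC8, also known as the thylakoid curvature protein CURT1B, was 1.56-fold and PTAC5 1.38-fold higher. PTAC17 fell by 0.35 and WHY1, a DNA-binding Whirly protein, by 0.32 on the log2 scale. The chloroplast genes that PEP reads could not be followed. All 4 core subunit genes (rpoA, rpoB, rpoC1, rpoC2) and all 10 listed chloroplast genes, among them psbD, psaA, psbN and ndhF, are listed at 0 in both genotypes and were not tested, as are all 279 organelle genes of the table.

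**Figure D4:**
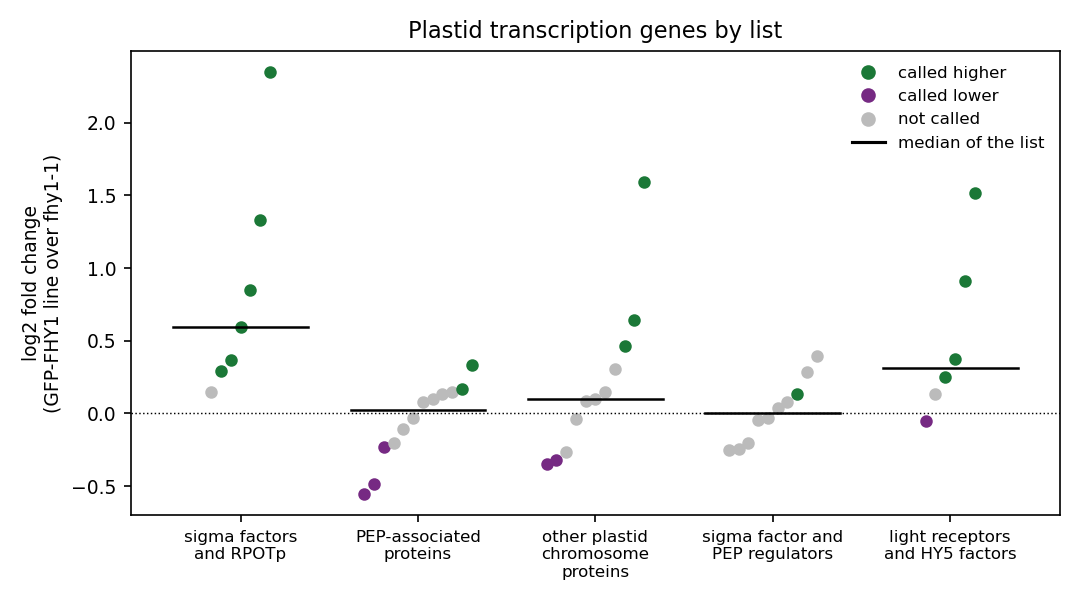
Points give the log2 fold change, GFP-FHY1 line over fhy1-1, of each gene of 5 lists, coloured by the authors' call at q below 0.05, and lines the median of each list. The sigma factors and RPOTp have a median of 0.59 and no lower call. The medians of PEP-associated proteins, regulators and other plastid chromosome proteins lie between 0.0034 and 0.10. That of light receptors and HY5 factors is 0.31.

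Light receptors and the HY5 factors had 4 of 6 genes called higher and 1 called lower by the authors' deposited q, against 9.92% and 12.9% of all tested genes. Whether any of them acts on the sigma factor genes in these seedlings was not tested. HYH was at 64.8 FPKM in the GFP-FHY1 line and 22.6 FPKM in fhy1-1 (2.86-fold), and HY5, the bZIP regulator of light-induced genes, at 91.8 FPKM in the GFP-FHY1 line and 48.8 FPKM in fhy1-1 (1.88-fold). PHYB and CRY1 rose by 0.38 and 0.25 on the log2 scale. PHYA was called lower with a log2 fold change of -0.05, a size at which centring on the median gene ends the call. The interval of the SIG5 fold change lay above those of all 6 genes, the nearest being that of HYH, which ended at a log2 fold change of 1.86 where that of SIG5 began at 2.14.

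By the distance of both log2 levels, the genes nearest to SIG5 were AT2G40802 (distance 0.19), AT1G50732 (0.24) and AT3G44704 (0.24), a likeness over 2 values. AT1G50732, an uncharacterised protein, was at 19.4 FPKM in the GFP-FHY1 line and 4.26 FPKM in fhy1-1 and was called higher. AT2G40802 (authors' deposited q = 0.653) and AT3G44704 (authors' deposited q = 0.189) had like levels without a call, and their loci span 102 and 156 bases.

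Markers of leaf mesophyll, root, seed reserves and guard cells were all above 0 in both genotypes. The calls below are those of the authors' deposited table, in which 9.92% of all tested genes were higher and 12.9% lower. All 3 mesophyll markers were called higher, with a median log2 fold change of 1.31, against 0.59 for the sigma factors and RPOTp. CA1, a carbonic anhydrase, was at 245.1 FPKM in the GFP-FHY1 line and 32.1 FPKM in fhy1-1, 7.64-fold higher, which is a larger fold change than that of SIG5. LHCB1.3, a light-harvesting protein, was at 1199 FPKM in the GFP-FHY1 line and 483.1 FPKM in fhy1-1 (2.48-fold), with the share of reads between it and its near-identical copies uncertain. RBCS1A, a Rubisco small subunit, was at 3666 FPKM in the GFP-FHY1 line and 3083 FPKM in fhy1-1 (1.19-fold), and it made up most of the summed level of the 3, which was 5110 FPKM in the GFP-FHY1 line and 3598 FPKM in fhy1-1.

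Of 4 root markers, PHT1;1, GL2 and RHS19 were called lower in the authors' deposited table, with log2 fold changes of -0.57, -0.56 and -0.49, and EXPA7 was not called. The 4 summed to 92.6 FPKM in the GFP-FHY1 line and 126.8 FPKM in fhy1-1. The locus of GL2 overlaps another gene. Both seed reserve markers were called lower: CRA1 was at 6.09 FPKM in the GFP-FHY1 line and 32.5 FPKM in fhy1-1, and SESA5 at 4.95 FPKM in the GFP-FHY1 line and 39.8 FPKM in fhy1-1. They summed to 11.0 FPKM in the GFP-FHY1 line and 72.3 FPKM in fhy1-1. Neither guard cell marker was called, with FAMA at 1.66 FPKM in the GFP-FHY1 line and 1.79 FPKM in fhy1-1 and KAT1 at 4.79 FPKM in the GFP-FHY1 line and 4.94 FPKM in fhy1-1, a sum of 6.45 FPKM in the GFP-FHY1 line and 6.73 FPKM in fhy1-1. For these markers too, a change in cell number and a change in RNA per cell cannot be told apart. Any part of either in the sigma factor levels was not tested. Of 5 reference genes, UBQ10 was called higher (log2 fold change 0.24) and GAPC2 lower (-0.30).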

How the data were processed

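RNA of 6 libraries, 3 per genotype, was sequenced with the Illumina mRNA protocol, per the labels' protocols. Bowtie and TAIR10 are named in the submitters' processing notes. The authors' deposited table has, per the file headers, the layout of a Cuffdiff gene comparison. The value columns carry no unit and are read as FPKM combined by the authors over the libraries of a genotype. The authors' deposited test statistic, a score, has the opposite sign to the fold change. The authors' deposited p-values and q-values were used as they stand. For tool versions, strand handling and dispersion setting: not given in the sources used here.

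Log2 fold changes (GFP-FHY1 line over fhy1-1) were recomputed from FPKM and matched the authors' column to within 1.46e-05. A gene was called at a q below 0.05. The implied error is the absolute log2 fold change divided by the statistic. Retests with this error, a two-sided normal test with Benjamini-Hochberg adjustment, were tested on simulated data drawn with the same error. That checks the calculation and cannot show whether the error fits these libraries. The members and the 12 gene lists were chosen with earlier results of these data known. All members were named, with the tested genes beside each, up to 6 called members of each list by fold change, or the 2 of highest level where none was called, and the 3 genes nearest to the called member with the largest fold. Other list genes named were chosen after their values were seen. Of 32810 nuclear genes shared with the RefSeq annotation of TAIR10.1, 27.4% had equal start and end, on all 5 chromosomes, so sequence was read from that genome. Scripts used Python 3.11.15, numpy 2.4.6, pandas 2.3.3, scipy 1.17.1 and matplotlib 3.10.9.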

Additional observations from a re-analysis of the deposited data

How the results depend on the processing

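The members called higher numbered 6 as deposited, 2 with at least a 2-fold change, 3 when a log2(FPKM + 1) change of 0.58 or more was required, 3 under an added spread between replicates of 20%, and 4 to 6 under the other alternatives. Of all genes tested, 9.92% were higher as deposited, 2.09% with 2-fold, 3.5% with the log2(FPKM + 1) change and 2.48% under 20% spread. Under the other alternatives the share was 5.13% to 12.5%. With overlapping loci left out, SIG4 is not tested and 5 of 6 were higher. No member was called lower, but by construction no alternative could have reversed a member's direction. They reuse the fold change, keep its sign with the pseudocount, or shift it upward by centring. RPOTp was called under none of the alternatives. SIG1 and SIG5 were called under all 11. The log2 fold changes that lost the call were those of SIG2 (0.36), SIG3 (0.59), SIG4 (0.85) and SIG6 (0.29) with the 2-fold requirement, of SIG2 (0.34), SIG3 (0.51) and SIG6 (0.28) with the pseudocount, of SIG2 (0.36) and SIG6 (0.29) with a spread of 10%, of those and SIG3 (0.59) with 20%, and of SIG6 (0.29) with Bonferroni adjustment (0.110 after adjustment). Stricter thresholds and wider errors lower counts by construction.

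Of all genes tested, calls higher and lower were 9.92% and 12.9% as deposited, and 8.23% and 9.81% at q below 0.01. They were 5.3% and 5.26% with Bonferroni adjustment, 2.09% and 0.476% with 2-fold, and 3.5% and 1.07% with the pseudocount. An added spread gave 5.13% and 2.61% at 10%, and 2.48% and 0.398% at 20%. Centring gave 12.4% and 9.51% on the median gene, and 11.6% and 10.7% on the reference genes. Counts of higher and lower calls in the gene lists moved as follows, other counts staying within 1.5 times. PEP-associated proteins (2 and 3) had 1 higher at q below 0.01, 0 and 1 with Bonferroni adjustment, 0 and 0 with 2-fold, pseudocount or 20% spread, 0 higher with 10%, and 4 higher with either centring. Regulators (1 higher) had 0 with 2-fold, Bonferroni, pseudocount and both spreads. Other plastid chromosome proteins (3 and 2) had 1 higher with 2-fold or 20%, 1 lower with q below 0.01, Bonferroni and both centrings, and 0 lower with 2-fold, pseudocount and both spreads. Light receptors and HY5 factors (4 and 1) had 1 higher with 2-fold, 2 with pseudocount or 20%, and 0 lower with Bonferroni, 2-fold, pseudocount, both centrings and both spreads. Root markers (3 lower) had 0 with 2-fold, pseudocount and 20%. Reference genes (1 and 1) had 0 and 0 with 2-fold, pseudocount and both spreads, and 2 higher with centring on the median. The centring shifts were log2 values of -0.05 for the median gene (of those reaching 1 FPKM) and -0.03 for the reference genes. No paired analysis was possible because each genotype has a single combined value per gene, and for the same reason no replicate was left out. Depth is unknown from FPKM.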

Other observations

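Of the 14 tested genes directly before or after a member, the authors' deposited table called 2 higher and 3 lower, where 9.92% of all tested genes were higher and 12.9% lower. NPQ1, which lies 78 bases after SIG2 and encodes the violaxanthin de-epoxidase, was at 13.0 FPKM in the GFP-FHY1 line and 8.79 FPKM in fhy1-1 (1.48-fold higher). AT1G64850, a calcium-binding protein gene before SIG1, was 1.19-fold higher. The lower genes were AT1G64880 after SIG1, UPP before SIG3 and AT2G24110 before RPOTp, with log2 fold changes of -0.24, -0.45 and -0.56. The genes on either side of SIG5 were low in both genotypes, WRKY30 at 0.232 FPKM in the GFP-FHY1 line and 0.243 FPKM in fhy1-1 (authors' deposited q = 0.977) and AT5G24130 at 0.998 FPKM in the GFP-FHY1 line and 0.606 FPKM in fhy1-1 (authors' deposited q = 0.250). The other neighbours without a call were AT5G13720 and ZIF1 beside SIG4, AT1G08530 before SIG2, AT3G53930 after SIG3, AT2G36980 and AT2G37000 beside SIG6, and AT2G24130 after RPOTp.

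A window of 1000 bases before each gene start was searched after the shorter window had been seen. The G-box occurred once, 326 bases before SIG4, in 1 of 7 members against 14.8% of windows of protein-coding genes. ACGT occurred in 6 of 7 against 85.0%, the GATA motif in 3 of 7 against 40.6%, and the FHY3/FAR1 motif in 0 of 7 against 2.54%. SIG5 held 2 ACGT cores and no G-box in that window. Windows of this length can reach into neighbouring genes.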
